A study of Mus musculus with 47 samples.

Results

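The question addressed here was whether the expression response to a high-fat diet (HFD) in mouse brainstem depended on a neuronal transgene, gene by gene. It was taken from the 23 brainstem libraries among the 47 libraries of the study, chosen by their region label alone, and asked of the 13340 genes whose mean count reached 50. The gene just inside this limit was *Fbxo4* and the one just outside it *Gm2427*, with mean counts of 50 and 49.91. The 4 groups were WT_SD (wild-type mice on standard diet, n = 5), WT_HFD (wild-type on HFD, n = 6), TG_SD (transgenic on standard diet, n = 6) and TG_HFD (transgenic on HFD, n = 6). All mice were male and of C57BL/6 background, and, per the study's methods, ate their diet from 5 weeks of age and were sampled at 12 months. TG mice were homozygous for a transgene driven by the Thy1 promoter, which is active in neurons of the central nervous system. WT mice came from the same outcross but were kept as a parallel colony, so that genotype and colony cannot be told apart. The tissue was the medulla, taken whole, and the RNA was poly(A)-selected. The methods speak of single animals per group, and no label ties the libraries to animals, litters or cages.

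The medulla holds the motor nuclei of the lower cranial nerves, the autonomic and respiratory centres and long fibre tracts rich in myelin. A high-fat diet changes the supply of fatty acids and the action of insulin, and it is known to alter mitochondrial, lipid and inflammatory gene programmes in several tissues. In a design of this kind, an interaction describes neither the effect of the diet nor that of the transgene but the gap between 2 diet responses. The interaction term used throughout is the log2 ratio of HFD to SD in TG minus the same ratio in WT. A positive term means that the HFD value stood higher relative to SD in TG than in WT, and a term of 0 means equal responses.

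The libraries held 10020784 to 15078812 counted reads. *Thy1*, whose promoter drives the transgene, stood between 6436 and 8902 CPM in TG and between 475.9 and 587.6 CPM in WT (counts scaled to a common library total), so that no library went against its genotype label. Of 26 listed Hox genes, the position code of the hindbrain and spinal cord, 9 passed the filter on counts. The summed level of all 26 ranged from 38.93 CPM in a WT_SD library to 198.3 CPM in another library of that group. Choroid plexus markers differed in sum between libraries, with a lowest library between 558.8 and 592 CPM in each group and a highest of 2862 CPM in WT_SD, 4815 in WT_HFD, 4741 in TG_SD and 4477 in TG_HFD. A pair of libraries stood apart by composition: the slope of log2 counts on GC content, relative to the mean library, was −0.29 per 10% of GC content in TG_SD replicate 1 and −0.33 in TG_HFD replicate 3, and between −0.16 and +0.18 in the other 21.

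A single gene, *Zfp382*, passed the test for an interaction. *Zfp382* encodes a zinc finger protein of the KRAB family, whose members repress transcription. In WT_SD its normalised count (scaled to the mean library) was 40.8, 37.2, 30.3, 35.9 and 35.1. In WT_HFD it was 34.2, 46.3, 44.1, 41.8, 65.5 and 81.6. In TG_SD the values were 105.9, 66.6, 57, 77.1, 67.3 and 80, and in TG_HFD they were 69.5, 84.3, 46, 44.4, 41.4 and 43.2. On standard diet every TG library lay above every WT library, with means of 75.6 ± 17 and 35.8 ± 3.78 (SD, n = 6 and 5). On HFD the genotypes overlapped, with means of 54.8 in TG and 52.2 ± 17.7 (SD, n = 6) in WT. The diets overlapped within each genotype: 4 of the 6 TG_HFD libraries lay below all TG_SD libraries, and replicates 7 and 8 of WT_HFD lay far above the other 4.

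The fitted diet response of *Zfp382* was +0.79 ± 0.17 (log2, SE) in WT and −0.56 ± 0.15 in TG, which gave an interaction term of −1.36 ± 0.24. Its adjusted p was 0.0467 in edgeR's quasi-likelihood test with Benjamini-Hochberg adjustment over all 13340 genes, with 4 surrogate variables (library-level covariates that sva estimates from the counts themselves) in the model. With a threshold of 0.05 for the adjusted p and of 0.3 for the absolute term, this gene made up 0.0075% of the genes tested. Its mean count of 54.8 was close to the filter of 50. None of the 2294 stretches of 75 bases, the read length, in its annotated transcripts also occurred in a transcript of another gene. In hippocampus its term was +0.11 ± 0.20 (unadjusted p = 0.583, edgeR).

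The negative sign of the *Zfp382* term was found in all other fits, while its call was not. Without surrogate variables the term was −1.04, with an unadjusted p of 0.00178 and an adjusted p of 0.612 in edgeR. Of 20 other settings, 6 called it, among them DESeq2 with the same surrogate variables (adjusted p = 0.0169) and limma with voom and sample quality weights (adjusted p = 0.00568). With a single library left out, the term lay between −1.68 and −1.07 and the adjusted p between 0.000238 and 0.459 in edgeR. The call held in 5 of these 23 fits, those without TG_SD replicate 5, TG_HFD replicate 1, TG_HFD replicate 8, WT_SD replicate 4 or WT_HFD replicate 4. The highest adjusted p came without WT_HFD replicate 8, the library with the group's highest count.

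**Figure D1:**
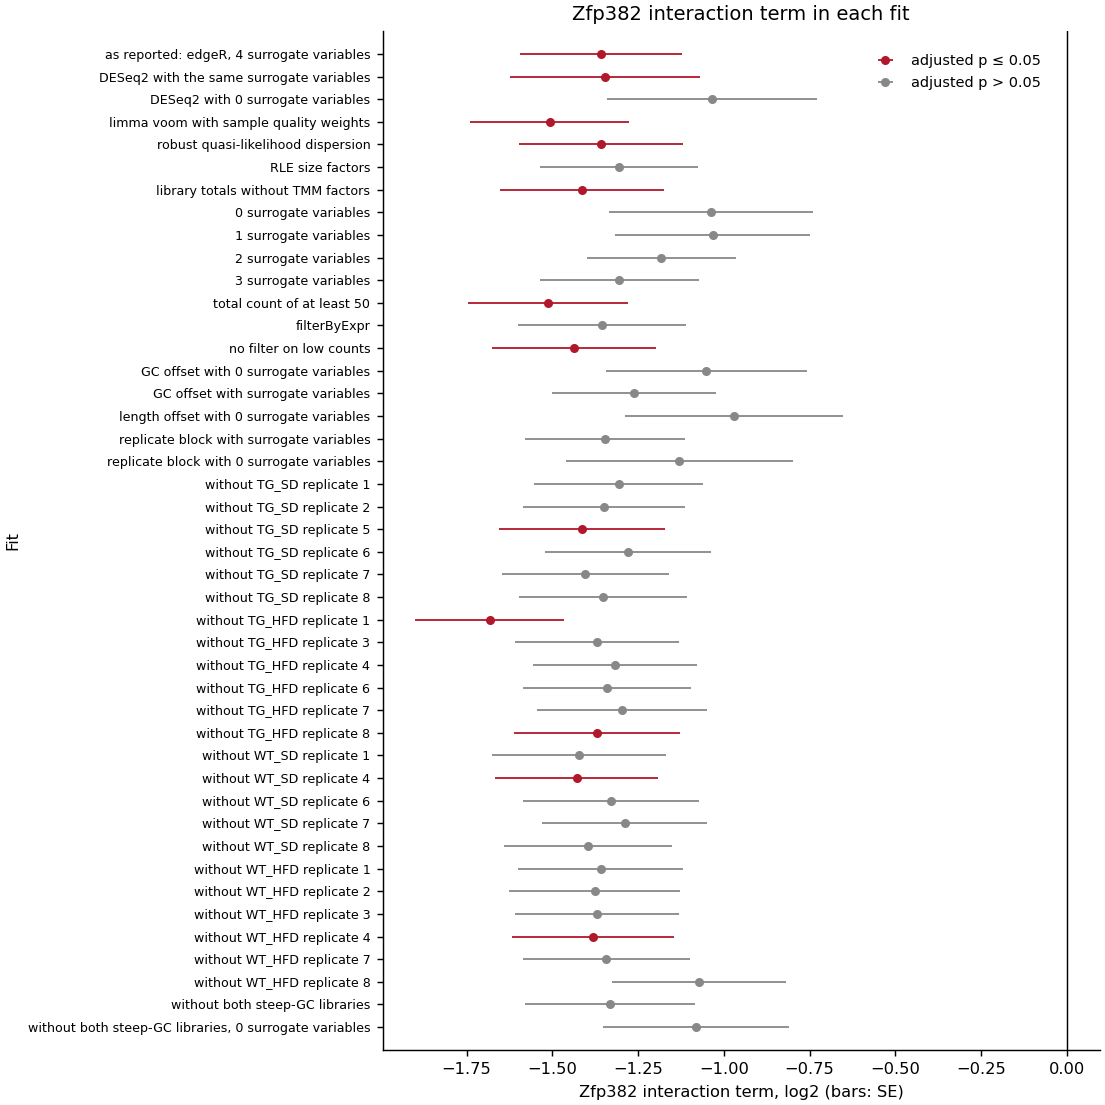
Interaction term of *Zfp382* (log2, x axis, bars: SE) in each fit (y axis), as reported and under every other setting or with libraries left out, red where the adjusted p was at most 0.05. All terms lie below 0, from −1.68 without TG_HFD replicate 1 to −0.97 with the length offset.

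Beyond *Zfp382*, the fit with 4 surrogate variables gave no excess of small p-values. At an unadjusted p up to 0.05 there were 644 genes, against 667 for an even spread of p-values over 13340 genes. Of these, 372 had a positive term (2.79% of the genes tested) and 272 a negative one (2.04%). This split followed the scaling: positive terms made up 57.8% of them with TMM factors and 30.8% when library totals alone were used. The second lowest adjusted p was 0.156, for *Gm29611*. The median SE of a term was 0.107 on the log2 scale, and 576 genes had an absolute term of at least 0.3. Among the 644 genes the diet response was negative in WT and positive in TG for 363, positive in WT and negative in TG for 261 and of the same sign in both for 20. Opposite signs thus made up 96.9%, against 50% of all tested genes, and choosing genes by the gap between 2 responses favours such a shape. The WT response was the larger in absolute value for 44.6% of them and for 49.7% of all genes. Without surrogate variables no gene was called, *Zfp382* included, while 1037 genes had an unadjusted p up to 0.05 in edgeR, 696 positive (5.22%) and 341 negative (2.56%). That number, above the 667 of an even spread, was 1609, 1595 and 611 with 1, 2 and 3 surrogate variables, and the study's methods do not state how many were used. The same sign and an unadjusted p up to 0.05 in both fits were found for 240 genes. Both fits used the same libraries, so this overlap is not independent support.

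**Figure D2:**
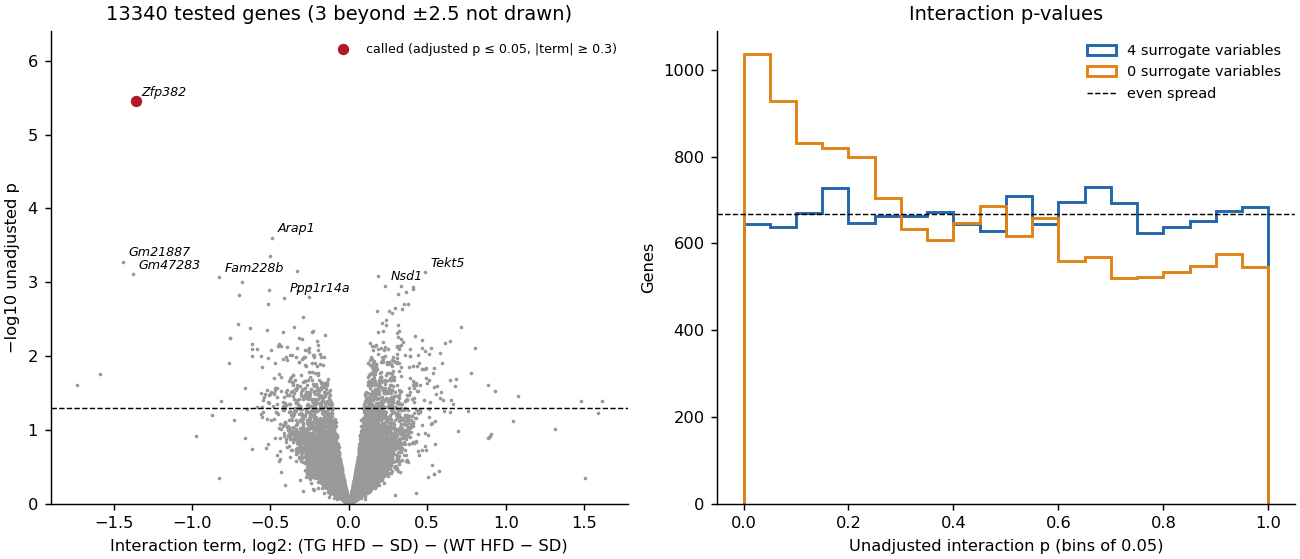
Left, interaction term (log2, x axis) against the −log10 of the unadjusted p (y axis) for each tested gene, with the called gene of edgeR's test in red and a dashed line at the threshold of 0.05, and 3 genes beyond the axis not drawn. Right, number of genes per bin of unadjusted p with 4 and with 0 surrogate variables, where the first bin holds 644 and 1037 genes and an even spread (dashed) would hold 667.

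The 10 negative terms of lowest unadjusted p included, besides *Zfp382*, genes of vessel cells, signalling and poorly known function, none of which passed the adjusted test. *Fam228b*, of unknown function, had counts of 34.6, 50.6, 54.4, 46.1 and 57 in WT_SD and of 65.2, 62.1, 55.1, 58.6, 67.5 and 51.8 in WT_HFD. Its TG_SD counts were 83.7, 65.6, 73.2, 85, 62.7 and 65.5, and its TG_HFD counts 54.8, 66.6, 53, 56.1, 51 and 34.7. As for *Zfp382*, all TG_SD libraries lay above all WT_SD libraries, the HFD groups overlapped, and the fitted diet responses of WT and TG had opposite signs. The term was −0.83 ± 0.22 (adjusted p = 0.942, edgeR) and −0.76 without surrogate variables.

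*Cd93*, a receptor of endothelial cells, had a term of −0.68 ± 0.19. Its counts ranged from 91.8 to 170.3 in WT_SD (median 128) and from 147.5 to 186.4 in WT_HFD (median 175). In TG they ranged from 97.8 to 165.5 on SD (median 155) and from 126.9 to 162.5 on HFD. Higher counts on HFD were thus seen in WT, with an overlap that a single WT_SD library caused, and TG showed a wide overlap. *Arap1*, which switches off small GTPases, had a term of −0.49 ± 0.12, with a median of 184 in WT_SD, 224 in WT_HFD and 211 in TG_SD. *Rsbn1* (term −0.50 ± 0.13), *Magt1*, a magnesium transporter and subunit of the machinery for N-glycosylation (−0.33 ± 0.09), and *Enpp4*, an ectoenzyme of the phosphodiesterase family (−0.25 ± 0.07), completed the single-copy genes. Of the 75-base stretches of *Rsbn1*, 28.9% also occurred in the antisense gene *Phtf1os*, and the counting is not stated to have used strand, so its value is uncertain.

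The other 3 negative terms rested on genes with unusual counts. *Gm29611*, a long non-coding RNA, was listed at 0 in 12 of the 23 libraries and reached 698.5 in TG_SD replicate 5, 274.3 in TG_SD replicate 8, 239.5 in TG_HFD replicate 8, 180.3 in WT_HFD replicate 2 and 127.3 in TG_HFD replicate 6. Its counts therefore followed single libraries rather than groups, and its fitted term is not given as a fold. *Gm21887* and *Gm47283* are near-identical copies: 57.1% of the 75-base stretches of the former and 35% of the latter were shared between both, so reads cannot be assigned with certainty to either. Their terms were −1.44 ± 0.37 and −1.38 ± 0.37, and the former was −0.94 without WT_HFD replicate 8. In WT_SD, replicate 6 stood apart with 131.1 counts of *Gm21887* against 21.7 to 29 in the other 4 libraries, and WT_HFD ranged from 42 to 171.8. Among the 10 negative and 10 positive terms of lowest p, this pair alone also had an unadjusted p up to 0.05 in hippocampus. The terms there were −1.19 ± 0.37 and −1.02 ± 0.33 (unadjusted p = 0.00261 and 0.00458, edgeR).

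The 10 positive terms of lowest unadjusted p were smaller, and all 10 had a negative diet response in WT and a positive one in TG. They included regulators of chromatin and transcription. *Tbl1xr1*, a subunit of the nuclear receptor corepressor complexes, had counts of 689.4, 584.3, 573.3, 575.5 and 590.7 in WT_SD and of 499.9, 545.7, 539.8, 513.5, 565.9 and 570.9 in WT_HFD. Its counts were 537.5, 466, 574.2, 561.2, 554 and 550.9 in TG_SD and 678.7, 670, 630.6, 567.8, 614.8 and 611 in TG_HFD. Each WT_HFD library lay below each WT_SD library, and 5 of 6 TG_HFD libraries lay above all TG_SD libraries. The term was +0.31 ± 0.09 (unadjusted p = 0.00144, adjusted p = 0.942, edgeR), and +0.38 without surrogate variables. *Nsd1*, a histone methyltransferase, had a term of +0.23 ± 0.06, with medians of 1080 in WT_SD, 927 in WT_HFD, 976 in TG_SD and 1080 in TG_HFD. *Zfp536*, a zinc finger regulator of neuronal differentiation, had a term of +0.33 ± 0.09, which was +0.48 without surrogate variables.

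Ion channel, organelle and other genes made up the remaining positive terms. *Kcnh7*, a voltage-gated potassium channel, had a term of +0.38 ± 0.11 that was +0.66 without surrogate variables and +0.21 without TG_HFD replicate 1. Its counts had medians of 413 in WT_SD, 301 in WT_HFD and 365 in TG_SD, and the groups overlapped. *Ankrd55*, an ankyrin repeat protein, had a term of +0.41 ± 0.11, and its highest count, 314.4 in TG_HFD replicate 1, stood apart from the next, 255.8. *Tekt5*, a filament protein of cilia and flagella, had a term of +0.49 ± 0.13. *Chchd6*, which shapes the cristae of mitochondria (+0.35 ± 0.10), and *Psmc4*, an ATPase of the proteasome cap (+0.18 ± 0.05), lost their size without surrogate variables, with terms of +0.09 and +0.00. The pseudogenes *Rpl17-ps4* and *Gm6278* shared 43.5% and 32.4% of their 75-base stretches with other genes, so their terms of +0.41 ± 0.11 and +0.36 ± 0.10 are uncertain. Without surrogate variables all 20 genes kept their sign, and 6 of the 10 positive and 5 of the 10 negative ones an unadjusted p up to 0.05. The genes were picked by their p in the same libraries, which favours such an outcome, so it is not independent support.

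**Figure D3:**
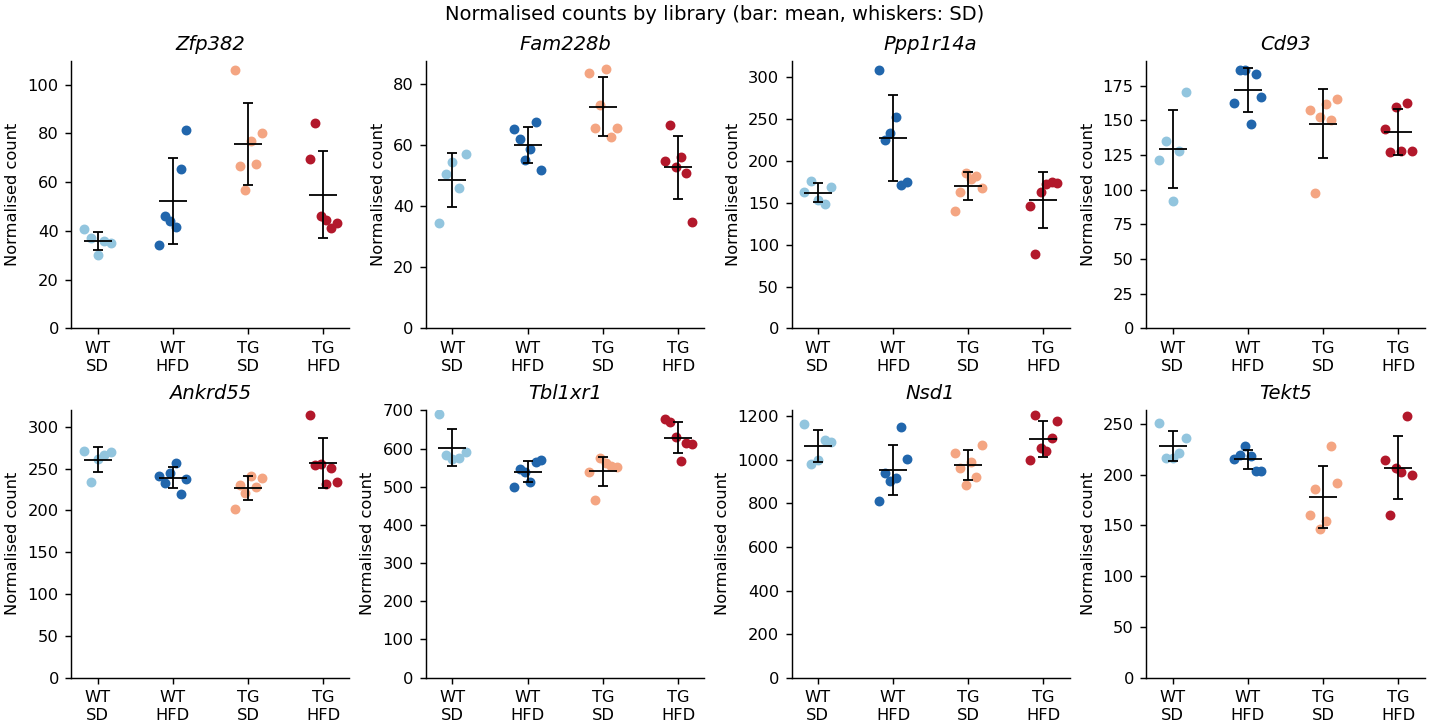
Normalised count (y axis) in each library of the 4 groups (x axis) for 8 genes with low interaction p, with the mean (bar) and SD (whiskers). *Zfp382* and *Fam228b* are lowest in WT_SD and highest in TG_SD, with all TG_SD libraries above all WT_SD libraries, while *Tbl1xr1* shows each WT_HFD library below each WT_SD library.

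**Figure D4:**
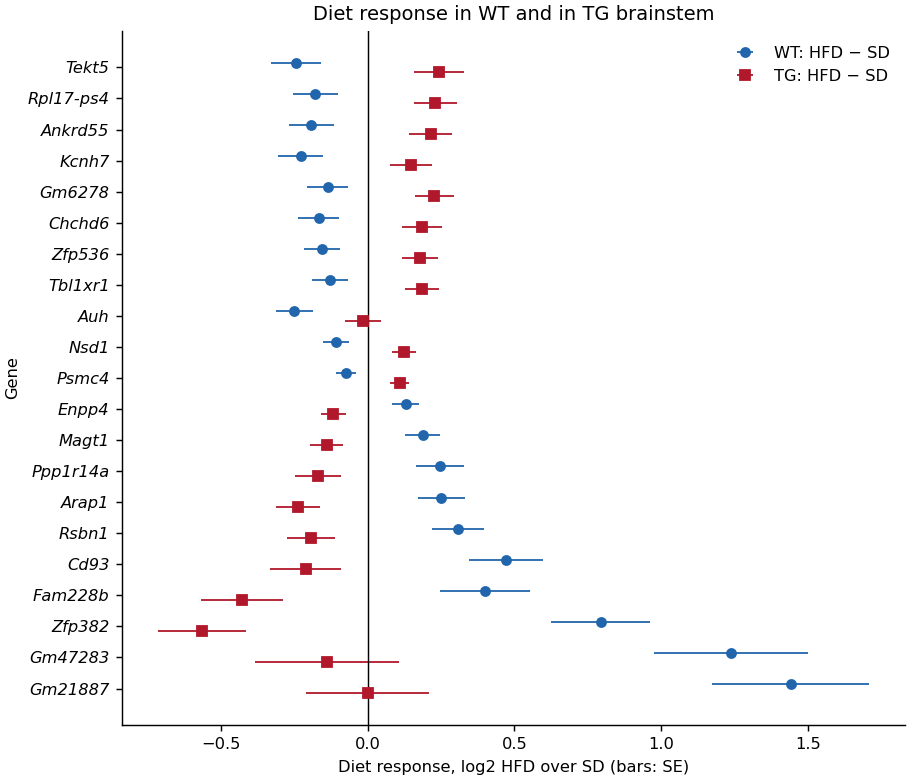
Diet response (log2 HFD over SD, x axis, bars: SE) in WT (circles) and TG (squares) for the genes of lowest interaction p, plus *Ppp1r14a* and *Auh* and without *Gm29611*, ordered by interaction term (y axis). The WT and TG values lie on opposite sides of 0 for all genes drawn except *Gm21887* and *Auh*, for which the TG value is near 0.

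A list of 15 genes was taken from the study's text. It left out *Cntn3* and *Grip2*, which the study names for hippocampus. Of the list 14 were tested, *Nab2* was below the filter on counts, and the lowest p among the 14 belonged to *Ppp1r14a*. This inhibitor of myosin phosphatase is expressed in oligodendrocytes. Its counts were 163.1, 176.5, 153.4, 148.6 and 169.4 in WT_SD and 308.4, 224.6, 233.2, 253.1, 171.9 and 175 in WT_HFD. They were 140.2, 163.4, 186, 178.9, 182.4 and 167.7 in TG_SD and 146.2, 89.5, 162.9, 172.5, 175.2 and 173.5 in TG_HFD. In 4 of the 6 WT_HFD libraries the count lay above every other brainstem library, and the TG groups overlapped. The term was −0.42 ± 0.12 (unadjusted p = 0.00162, adjusted p = 0.942, edgeR), −0.63 without surrogate variables and −0.49 with a correction for GC content in their place. The study, which used DESeq2, reported a significant interaction of this gene in brainstem, whereas it was not called here. DESeq2 did not call it here either, with the same surrogate variables or with 0 of them. The lowest TG_HFD count, 89.5, was that of replicate 3, a library with a steep GC slope. The listed genes were picked by the study on libraries of this series, some of them, such as *Zfp932* and *Nab2*, in hippocampus. They are not independent evidence of a direction.

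*Auh*, an enzyme of leucine breakdown in mitochondria, had a term of +0.23 ± 0.09 (unadjusted p = 0.0182, adjusted p = 0.993, edgeR). Its diet response was −0.25 ± 0.06 in WT and −0.02 ± 0.06 in TG. It stood at 753.7 to 907.7 in WT_SD, 621.1 to 831.4 in WT_HFD, 542 to 647.5 in TG_SD and 543.1 to 616.9 in TG_HFD, so that the TG groups almost coincided. *Gabra2*, a subunit of the GABA-A receptor, and *Zfp932* had terms of +0.04 ± 0.19 and +0.12 ± 0.13. *Thy1* had a term of −0.09 ± 0.07, and its diet response within TG was −0.09 ± 0.05. The remaining genes of this set, *Stub1*, *Uchl1*, *Atp13a2*, *Mif*, *Ndufa2*, *Cox6a1* and *Uqcrq*, had terms between −0.08 and +0.03, none with an unadjusted p up to 0.05. Without surrogate variables all of them were negative, from −0.52 for *Uqcrq* to −0.09 for *Atp13a2*. Only *Cox6a1* (−0.37) then had an unadjusted p up to 0.05 (unadjusted p = 0.0146, adjusted p = 0.612, edgeR). The values of these genes thus turned on the surrogate variables.

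The subunits of the respiratory chain gave values that turned on the surrogate variables. Complexes I to V of the inner mitochondrial membrane carry out oxidative phosphorylation (OXPHOS), and most subunits are encoded in the nucleus. Without surrogate variables 35 of 36 nuclear subunits of complex I and 38 of 39 of complexes II to V had negative terms, with medians of −0.16 and −0.18 against −0.00 for all genes. The diet response of complex I had a median of +0.10 in WT and of −0.06 in TG in that fit. In library sums, complex I stood at 2849 to 3303 CPM in WT_SD (median 2965), 2946 to 3720 in WT_HFD (median 3302), 2875 to 3242 in TG_SD (median 2965) and 2591 to 3076 in TG_HFD (median 2898). All 4 ranges overlapped. Unadjusted p-values up to 0.05 were reached by 4 subunits of complex I (*Ndufb4*, *Ndufs6*, *Ndufb10* and *Ndufc1*) and by *Cox6a1*, with terms of −0.30, −0.31, −0.23, −0.26 and −0.37. None was called.

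The shift depended on the number of surrogate variables. With 1 and 2 of them, 72 and 68 of the 75 terms were negative (medians −0.17 and −0.09), and 17 were negative at an unadjusted p up to 0.05 in either fit, against 5 with none. The count over all 13340 genes rose as well, from 1037 with none to 1609 and 1595. Of these, 67.1%, 57.7% and 56.1% were positive. With 2 surrogate variables and the replicate number as a block, 69 were negative (median −0.08), 13 of them at an unadjusted p up to 0.05. Over all genes that fit gave 1227 at this limit, 63.2% of them positive. With 3 surrogate variables 22 were negative (median +0.03). With 4, the number used here, 18 of the 36 and 17 of the 39 terms were negative. The medians were +0.00 and +0.02, and the 2 sets held 0 and 1 genes at an unadjusted p up to 0.05. That gene was *Sdhc*, a membrane anchor of complex II, with +0.12 ± 0.06, which was +0.07 without WT_SD replicate 6. A correction for transcript length in place of surrogate variables gave medians of −0.07 and −0.08, and a correction for GC content −0.16 and −0.18. With a single library left out and no surrogate variables, the median of all 75 genes lay between −0.22 and −0.12. The 13 transcripts of the mitochondrial genome did not share the shift. Their terms were positive in 11 of 13, with a median of +0.10 with and of +0.07 without surrogate variables, and *mt-Nd5*, *mt-Co1* and *mt-Nd6* had terms of +0.20, +0.13 and +0.18 at an unadjusted p up to 0.05. Without TG_HFD replicate 1 the median with surrogate variables was +0.04.

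Without surrogate variables, ribosomal protein and proteasome genes had mostly negative terms, and genes of calcium signalling and presynaptic release mostly positive ones. These lists were not compared with each other by a test. Of 77 cytosolic ribosomal protein genes, 75 had negative terms without surrogate variables (median −0.13), and 65 had positive terms with them (median +0.05, and +0.01 without WT_SD replicate 6), 6 of them at an unadjusted p up to 0.05. Of 76 mitochondrial ribosomal protein genes, 64 were negative without and 35 with surrogate variables, with medians of −0.12 and +0.02. Proteasome subunits, which form the main protease for ubiquitin-tagged proteins, were negative in 29 of 33 without and in 14 with surrogate variables.

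Calcium channel and signalling genes were positive in 35 of 37 without surrogate variables (median +0.16) and in 27 with them (median +0.04). Genes of presynaptic release had medians of +0.15 and +0.04, and those of insulin, IGF and leptin signalling +0.19 and +0.03. *Rph3a*, which binds Rab proteins on synaptic vesicles, kept its term in both fits, at +0.18 ± 0.05 with (unadjusted p = 0.00245, adjusted p = 0.993, edgeR) and +0.26 without surrogate variables. Its count ranged from 6275.9 to 7316.1 in WT_SD, 5838.6 to 6642 in WT_HFD, 5374.1 to 6268.3 in TG_SD and 5623.5 to 6931.3 in TG_HFD. *Unc13a*, a priming factor of synaptic vesicles, and *Sv2c*, a vesicle protein, had terms of +0.18 and +0.16 with, and +0.26 and +0.55 without surrogate variables.

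Over all genes, the terms without surrogate variables followed transcript length and GC content. In that fit the tercile of genes with the shortest transcripts had a median term of −0.08 and that with the longest one of +0.10. At an unadjusted p up to 0.05 the long tercile held 567 positive and 38 negative terms, and the short tercile 32 and 214. With surrogate variables the medians were +0.01 in both, and the counts 157 and 96 in the long and 122 and 78 in the short tercile. By GC content, the lowest and the highest tercile had medians of +0.03 and −0.05 without surrogate variables, with 297 positive and 59 negative against 71 and 171 terms at an unadjusted p up to 0.05. With surrogate variables those medians were −0.01 and +0.01, and the counts 88 and 117 against 145 and 88. The slope of a library's log2 counts on transcript length, per doubling, had means of +0.004 in WT_SD, −0.023 in WT_HFD, −0.009 in TG_SD and +0.028 in TG_HFD. The gap between the diet differences of this slope was 0.0646, with p = 0.128 in a two-sided exact permutation test of diet labels within genotype (BH-adjusted p = 0.237 over 4 library measures). For the GC slope the exact permutation p was 0.517, for the total count 0.178 and for the TMM factor 0.0999. The part of length and GC content in the OXPHOS, ribosomal and neuronal values beyond these fits was not tested.

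**Figure D5:**
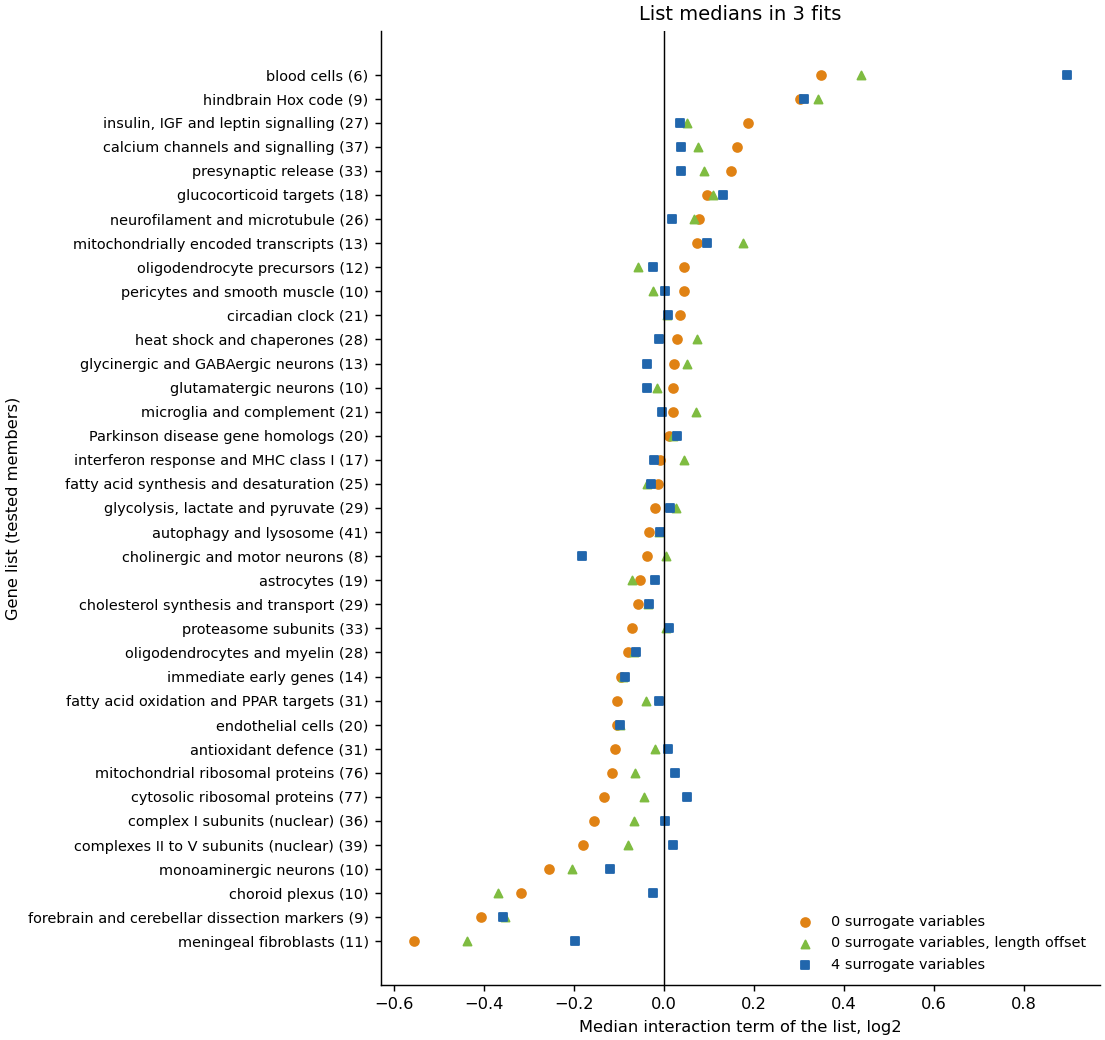
Median interaction term (log2, x axis) of each gene list with at least 6 tested members (y axis, number of tested members in parentheses) with 4 surrogate variables (squares), with none (circles) and with none plus a correction for transcript length (triangles). The medians of OXPHOS, ribosomal, calcium channel and presynaptic lists lie between +0.00 and +0.05 with surrogate variables and between −0.18 and +0.16 without them.

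Across all 38 lists, which covered metabolism, protein turnover, stress, neuronal function and cell types, 0 of 889 tested members were called in edgeR. At an unadjusted p up to 0.05, 33 members were positive (3.71%, against 2.79% of all genes) and 17 negative (1.91%, against 2.04%). By sign alone, 6940 of all 13340 terms were positive and 6400 negative. Among lipid genes, *Ucp2*, an uncoupling protein of mitochondria, had a term of +0.31 ± 0.11, which was +0.06 without surrogate variables and +0.19 without WT_SD replicate 6. Its list of fatty acid oxidation genes had 17 negative terms of 31 (median −0.01), with 1 member on either side at an unadjusted p up to 0.05. *Fdps*, of the mevalonate pathway, had a term of +0.47 ± 0.16, while 21 of the 29 cholesterol genes had negative terms (median −0.03). *Elovl7* and *Elovl5*, elongases of fatty acids, had terms of −0.22 ± 0.09 and −0.14 ± 0.06, and *Dgat1*, of triglyceride synthesis, +0.31 ± 0.14. The *Elovl7* term was −0.10 without TG_HFD replicate 1. Glucocorticoid targets had positive terms in 16 of 18 (median +0.13), with an unadjusted p up to 0.05 for the clock gene *Per1* (+0.37 ± 0.17). The median was +0.05 without WT_SD replicate 6, and the *Per1* term +0.08 without WT_HFD replicate 8. *Chordc1*, a cofactor of a heat shock chaperone, had the lowest unadjusted p among chaperones, with −0.25 ± 0.07 (unadjusted p = 0.00159, adjusted p = 0.942, edgeR) and −0.07 without surrogate variables.

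Lists for the cell types of the medulla were also without a call. The counts of signs below stand against 6400 negative terms among all 13340 genes. In bulk tissue, fewer cells of a type and less RNA per cell cannot be told apart. Myelin genes had negative terms in 22 of 28 (median −0.06, and −0.03 without WT_SD replicate 1), with *Ppp1r14a* and *Ugt8a*, which makes the galactolipids of myelin (−0.21 ± 0.08), at an unadjusted p up to 0.05. Their summed level ranged from 16530 CPM in a TG_HFD library to 25970 CPM in WT_HFD replicate 1. Endothelial genes were negative in 14 of 20 (median −0.10, and −0.04 without WT_SD replicate 6), among them *Cldn5*, a tight junction protein of the blood-brain barrier (−0.36 ± 0.13), and the adhesion molecule *Pecam1* (−0.28 ± 0.10). *Cldn5* stood at 229.1 to 308.9 in WT_SD, 275.2 to 401.2 in WT_HFD, 220.9 to 412.5 in TG_SD and 163.3 to 339.8 in TG_HFD.

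Of 8 tested genes of cholinergic and motor neurons 6 were negative (median −0.18, and −0.08 without WT_SD replicate 6). Among them *Slc18a3*, the vesicular transporter of acetylcholine, had a term of −0.34 ± 0.15 (unadjusted p = 0.0279, adjusted p = 0.993, edgeR). Genes of monoaminergic neurons were negative in 8 of 10 (median −0.12), and in 9 of 10 without surrogate variables (median −0.26). Those of glycinergic and GABAergic neurons were negative in 10 of 13 (median −0.04), with 1 member on either side at an unadjusted p up to 0.05, the positive one being *Pax2* of inhibitory interneurons (+0.51 ± 0.18). Microglial genes were split, 10 positive and 11 negative (median −0.00), with *Siglech* and *P2ry12* at +0.31 ± 0.14 and +0.25 ± 0.12. Interferon genes had a median of −0.02 and astrocyte genes one of −0.02.

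Several lists of markers for neighbouring tissue and blood had larger medians than most lists, and their part in the results was not tested. Choroid plexus markers were not among these, with 5 positive and 5 negative terms and a median of −0.02, which was −0.32 without surrogate variables and lay between −0.15 and +0.10 with a single library left out. The cerebellar granule cell genes *Cbln3* and *Gabra6* had the terms −1.59 ± 0.63 and −1.73 ± 0.73 (unadjusted p = 0.0178 and 0.0248, edgeR). The *Cbln3* term was −0.94 without WT_HFD replicate 8. Its counts ranged from 26.3 to 203.4 in WT_SD, 118.2 to 298.2 in WT_HFD, 55.9 to 528.5 in TG_SD and 47 to 198 in TG_HFD. The 9 markers of forebrain and cerebellum that passed the filter, of 18 listed, had 7 negative terms and a median of −0.36, which was −0.16 without WT_HFD replicate 8. The sum over all 18 listed markers, tested or not, stood at 98.84 to 140.6 CPM in WT_SD and 121 to 171.3 in WT_HFD. It was 96.88 to 223.8 CPM in TG_SD and 91.96 to 149.9 in TG_HFD. Hox genes had positive terms in 8 of 9 (median +0.31, none at an unadjusted p up to 0.05), up to +1.59 ± 0.80 for *Hoxb8*, which ranged from 0 to 308.1 counts within WT_SD alone. Without TG_HFD replicate 1 the median of the Hox genes was −0.11 and the *Hoxb8* term −0.08. Haemoglobin and other blood cell genes were positive in 6 of 6 (median +0.90) with 0 at an unadjusted p up to 0.05. The sums over all 12 listed blood cell genes, tested or not, ranged from 626.5 to 3360 CPM. The median of the tested genes was +0.08 without WT_SD replicate 6, the library with the highest sum. Meningeal fibroblast genes were negative in 10 of 11 (median −0.20, and −0.56 without surrogate variables), with a median of −0.09 without TG_HFD replicate 7.

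The hippocampus of the same groups, in 24 libraries, gave 0 called interactions (0%) among 13272 genes with the same model in edgeR, and 794 (5.98%) had an unadjusted p up to 0.05. Of the 644 brainstem genes at an unadjusted p up to 0.05, 592 were tested there. Of these, 301 had a term of the same sign, against 6369 of all 12619 genes tested in both regions, and 46 had an unadjusted p up to 0.05, against 763 of all. The OXPHOS medians in hippocampus were −0.00 and −0.01 with 4 surrogate variables, against +0.00 and +0.02 in brainstem with as many. No hippocampus median without surrogate variables is given here, so these values do not bear on the shift seen in that fit.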

How the data were processed

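RNA of 23 brainstem and 24 hippocampus samples was sequenced as single-end reads of 75 bp. The authors aligned the reads with STAR 2.7.9a (submitters' processing notes) to a mouse genome extended by the transgene and deposited raw counts per gene and library. How reads were assigned to genes, and whether strand was used, is not given in the sources used here. Samples were grouped by their labels for region, genotype and diet, and p-values measure the spread between these libraries.

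Here, genes whose mean count reached 50 were fitted with edgeR 4.0.16 (R 4.3.3) after TMM normalization, with all 4 brainstem groups in 1 model and surrogate variables from svaseq of sva 3.50.0, as in the study's methods, which name DESeq2. The permutation method of num.sv gave 4. The interaction was tested with the quasi-likelihood F test and Benjamini-Hochberg adjustment over all tested genes. Genes were called at an adjusted p up to 0.05 with an absolute term of 0.3 or more. Unless stated otherwise, list and gene values are from this fit. Alternatives were other tools (DESeq2 1.42.0, limma 3.58.1), normalizations, filters, numbers of surrogate variables, corrections for GC content and length, the replicate number as a block, and each library left out. Symbols, GC content and transcripts came from GENCODE M21 of GRCm38, another build than that of the alignment, so no coordinates are given. 21 tested genes had no GC content. The scripts were tested on simulated data.

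Named were every called gene, the 10 positive and 10 negative terms of lowest p, and for each gene list the tested member of lowest p. A list of genes from the paper's text, not all that it names, was added. Other list members at an unadjusted p up to 0.05 were named after their values were seen. The members, lists and tests were chosen with earlier results of these data known. A few genes are not reported here.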

Additional observations from a re-analysis of the deposited data

Results flagged for a closer look

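The interaction of *Zfp382* (term −1.36) was flagged because its diet responses in WT and TG differed in the test of the difference itself.

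Of 132 groups of libraries examined (29 genes and 4 library measures in 4 groups each), 14 held a library beyond Dixon's 95% limit, or 10.6%. Chance flags about 1 in 20 of independent groups with normally distributed values. The gene counts were not log-transformed, many of the genes were picked by low p, and *Gm21887* and *Gm47283* share sequence. The 2 rates therefore cannot show an excess of outlying libraries. In WT_SD, replicate 6 was the highest for *Psmc4* (1232 against 1114 in the next library), *Gm6278* (370 against 308.7), *Gm21887* (131.1 against 29) and *Gm47283* (177.4 against 66.7). In the same group replicate 1 was the highest for *Tbl1xr1* (689.4 against 590.7) and the lowest for *Magt1* (328.6 against 432.1), and replicate 4 the lowest for *Ankrd55* (234.4 against 261.2). TG_SD replicate 2 was the lowest for *Tbl1xr1* (466 against 537.5) and *Cd93* (97.8 against 150.5) and the highest for *Cbln3* (528.5 against 225.9). TG_HFD replicate 1 was the highest for *Ankrd55* (314.4 against 255.8) and *Hoxb8* (212 against 88.8), and TG_HFD replicate 3 the lowest for *Ppp1r14a* (89.5 against 146.2). WT_HFD replicate 2 held 180.3 counts of *Gm29611* against 1 in the next library.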

How the results depend on the processing

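Across 20 settings other than leaving out 1 library, no term of a named gene that was called changed its sign, and the *Zfp382* term lay between −1.51 and −0.97. The number of called genes, 1 as reported, was 0 with DESeq2 and 0 surrogate variables, with RLE size factors, with 0, 1, 2 or 3 surrogate variables, with filterByExpr, with each offset for GC content or length, and without both libraries of steep GC slope (chosen after seeing the data, with 4 or with 0 surrogate variables). It was 2 with no filter on low counts, and 1 without the fold threshold. With 1 library left out it ranged from 0 to 2, and was 0 in 17 of 23 fits, where *Gm29611* was called without TG_SD replicate 5, TG_SD replicate 6, TG_HFD replicate 8 or WT_SD replicate 4. Genes at an unadjusted p up to 0.05, 644 as reported, numbered 1064 with DESeq2 and 0 surrogate variables, 1037, 1609 and 1595 with 0, 1 and 2 surrogate variables, 2116 with no filter, where 33139 genes were tested, and 1238 with the GC offset and 0 surrogate variables. With 1 library left out they numbered 585 to 736. The cause of these differences was not tested. Replicate numbers were not shown to pair the libraries: deviations of same-numbered libraries correlated with a median r of 0.0392 over 26 pairs, and 10 of them exceeded 0.1. Over 172 pairs of libraries with different numbers the median r was −0.026, and 60 exceeded 0.1. With the replicate number as a block, 0 genes were called both with and without surrogate variables, and 1227 and 757 had an unadjusted p up to 0.05. Among the 20 genes of lowest p, 1 of 400 terms changed sign under these settings, that of *Psmc4*, and 0 of 460 with a library left out. Of the 400, 121 moved by more than 1 SE with no call in either fit, and in 14 a call was lost. These genes were picked by their p in the same libraries, so their kept signs are not independent support. Of 820 list medians 126 moved by 0.1 or more and 183 changed sign under these settings, and of 943 with a library left out 31 and 86. The median SE of a term, 0.107 on the log2 scale, limits what these depths and group sizes can show.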
